A study of Mus musculus with 45 samples.

Results

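The genes described are the subunits of the receptors for glutamate and GABA (gamma-aminobutyric acid). They were chosen by gene symbol alone, which gave 47 of the 36172 genes in the deposited tables. They comprise 26 glutamate receptor genes (4 AMPA, 5 kainate, 7 NMDA, 2 delta and 8 metabotropic) and 21 GABA receptor genes (6 alpha, 3 beta, 3 gamma, 4 other GABA-A, 3 rho and 2 GABA-B). RNA had been sequenced from the cortex, hippocampus and retina of mice aged 3 months. Each animal had received tamoxifen, a selective oestrogen receptor modulator used to activate inducible Cre recombinase, or its vehicle, sunflower oil. No strain, genotype, dose or interval after dosing is given in the sources used here. Females on tamoxifen gave 4 libraries in every tissue, and females on vehicle gave 3. Males on tamoxifen gave 3 cortex, 4 hippocampus and 4 retina libraries, and males on vehicle gave 4, 3 and 4. The tissues of an animal share its number, so libraries of different tissues come from the same animals.

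Glutamate is the main excitatory transmitter of the vertebrate brain and retina, and GABA is the main inhibitory one. AMPA, kainate and NMDA receptors are ion channels built of 4 subunits, and GABA-A receptors are chloride channels built of 5, so the subunits that a cell makes set how fast its channels open, what they pass and which drugs they bind. Metabotropic glutamate receptors and GABA-B receptors act through G proteins. In the retina, photoreceptors release glutamate in the dark, and ON bipolar cells read that signal through a metabotropic receptor, mGluR6, in place of an ion channel.

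Total counts ran from 10259768 to 22375163 in the 14 cortex libraries, from 31154309 to 44153244 in the 14 hippocampus libraries and from 9143811 to 18253874 in the 15 retina libraries. Levels below are CPM, the counts scaled to 1000000 per library after TMM correction, which evens out differences in composition. The tissue labels were compared with marker lists, which did not single out every tissue. All 6 rod and all 6 cone markers had a median of at least 1 CPM in the retina, and the rod list summed to 38010 to 46610 CPM there, against 2.30 to 4.05 CPM in the hippocampus and 10.4 to 75.1 CPM in the cortex. The hippocampal neuron list (6 genes) summed to 390 to 499 CPM in the hippocampus and 97.8 to 217 CPM in the cortex, but to 448 to 569 CPM in the retina, so its sum does not single out the hippocampus from the retina. The cortical excitatory neuron list (6 genes) summed to 1513 to 1784 CPM in the cortex. Its sums were 1225 to 1671 CPM in the hippocampus and 1584 to 1779 CPM in the retina, so this list does not single out the cortex. Ttr, the main choroid plexus transcript, reached 1020 to 2090 CPM in 3 hippocampus libraries against a tissue median of 75 CPM, and 295 to 2700 CPM in 3 cortex libraries against 39.5 CPM. Cryaa, a lens crystallin, lay at 14.2 to 156 CPM in 3 tamoxifen retinas, whose tissue median was under 1 CPM.

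Among the receptor genes themselves, 3 libraries stood apart from the rest of their tissue. The hippocampus of male tamoxifen animal 959 deviated from the tissue median by a median of 0.245 on the log2 scale over 41 subunits, and the other 13 hippocampus libraries by 0.0425 to 0.144. The retinas of female tamoxifen animal 953 and female vehicle animal 955 deviated by 0.212 and 0.201 over 44 subunits, against 0.0612 to 0.122 in the other 13 retinas. Over all genes, the deviation of the hippocampus of animal 959 went with transcript length (Spearman rho of -0.668 across 11231 genes, which are not independent replicates). Such a trend was not particular to it, since the hippocampus of animal 957 had a rho of 0.669. Treatment and sex differences in the hippocampus and retina are also given without the 3 libraries.

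The first comparison set the tissues side by side in vehicle animals (7 cortex, 6 hippocampus and 7 retina libraries). Most subunits were lowest in the retina, and the hippocampus and cortex differed from each other in a smaller and mixed way. With edgeR's quasi-likelihood test, 21 of 44 subunits tested were higher in the hippocampus than in the cortex (47.7%) and 11 were lower (25%). Of all genes tested, 29.3% were higher and 29% lower. The difference between these tissues went with transcript length across 14866 genes (rho 0.344). With each library's trend over GC and length taken out, 19 subunits were higher and 16 lower, and 8574 of 15598 genes were called. Retina against cortex gave 8 subunits higher (18.2%) and 35 lower (79.5%), where 42.1% of all genes were higher and 41.4% lower. Retina against hippocampus gave 10 higher (22.7%) and 33 lower (75%), where 43.8% of all genes were higher and 40.7% lower. The median log2 difference of the tested subunits was 0.24, -1.58 and -1.89 in these comparisons, and that of all genes -0.01, 0.02 and 0.04. In bulk tissue, fewer cells of a type and less RNA per cell cannot be told apart.

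The low count filter bears on these numbers. Gabra6, Gabre and Gabrp passed it nowhere. Grm6, Gabrr1, Gabrr3 and Gabrq passed it in the retina but not in the cortex on its own, and Grm6, Gabrr3 and Grin3b passed it in the retina but not in the hippocampus on its own. Of the 40 subunits that passed in both retina and cortex, 4 were higher in the retina (Gabrr2, Grik1, Grm8 and Grin3b), 35 were lower and 1 (Grin2d) was not called. The ranges of the retina and cortex vehicle libraries did not overlap for 36 of these 40 subunits. Of the 41 that passed in both retina and hippocampus, 7 were higher, 33 lower and 1 (Grm4) was not called, and the ranges did not overlap for 36. Between hippocampus and cortex, 39 passed in both, of which 20 were higher, 9 lower and 10 not called, and 24 had ranges that did not overlap. Of the 15598 genes tested, 13027 were called in retina against cortex, 13192 in retina against hippocampus and 9092 in hippocampus against cortex. Ranges were not compared over all genes, so the overlap counts are a description and do not set the subunits apart.

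**Figure D1:**
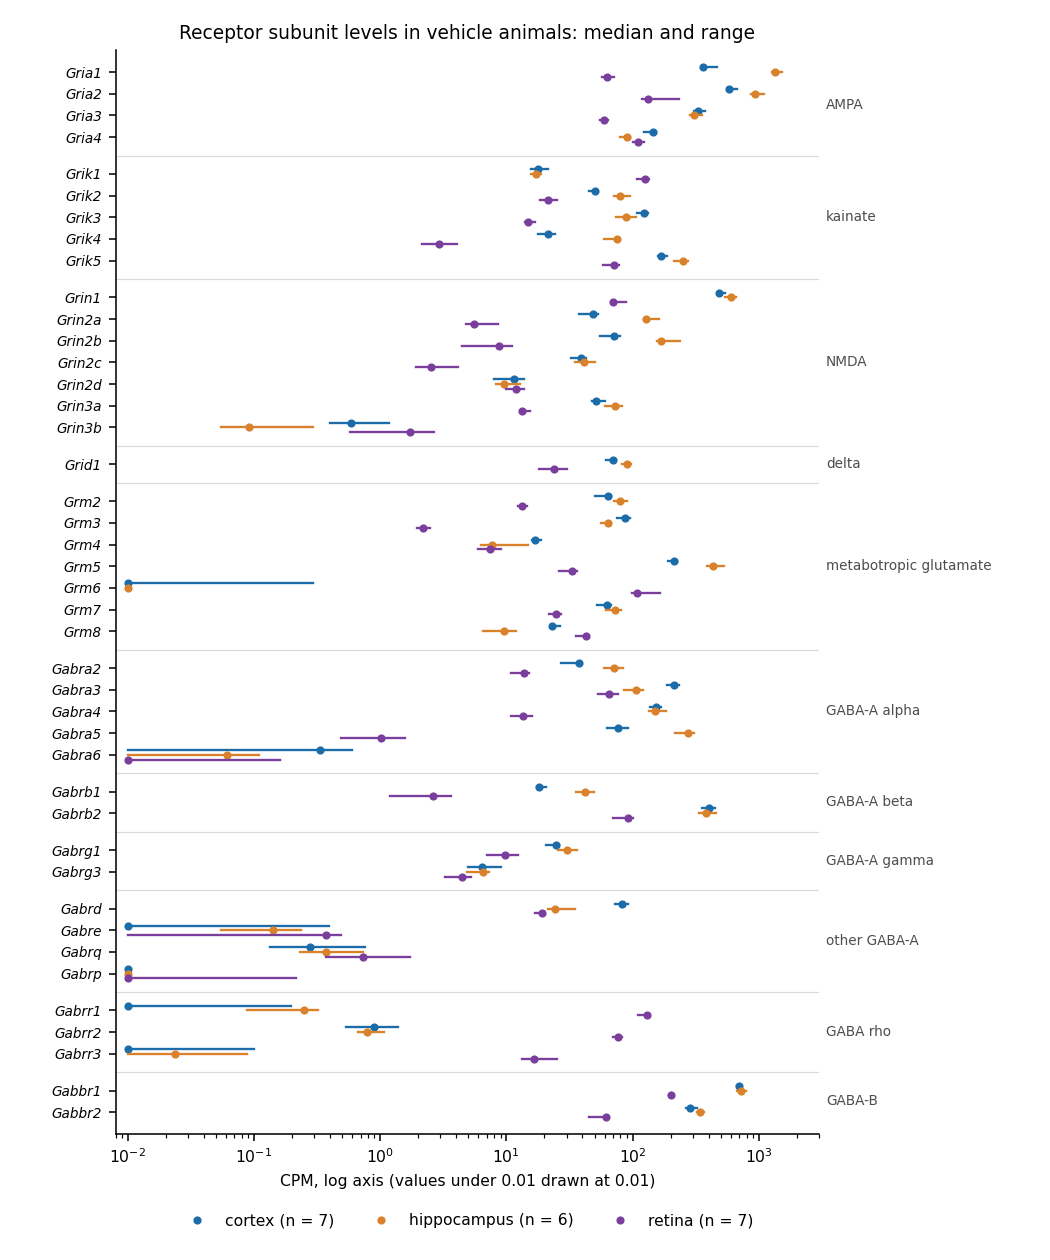
Level of 42 of the 47 subunits in vehicle animals, in CPM on a log axis, grouped by class. Points are medians and bars run from the lowest to the highest library of the cortex (n = 7), hippocampus (n = 6) and retina (n = 7). Most retina points lie left of both brain tissues, and Grm6 and the 3 rho genes lie far to their right.

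The rho genes and Grm6 stood out in the retina. GABA-A subunits of the rho class assemble into slowly closing GABA channels known from bipolar cells, and Grm6 encodes mGluR6 of ON bipolar cells. Grm6 ran from 98.2 to 166 CPM in the 7 vehicle retinas with a median of 108 CPM, and Gabrr1 from 110 to 135 CPM with a median of 129 CPM. Gabrr2 ran from 69.7 to 82.2 CPM (median 76.6 CPM) and Gabrr3 from 13.3 to 25.3 CPM (median 16.6 CPM). No brain library came near these levels. Grm6 had 0 counts in all 14 hippocampus libraries, so that the retina lay at least 8610-fold higher in vehicle animals (11009 counts, against 3 counts taken as the upper limit for the 6 hippocampus libraries together). Against the cortex, where 6 Grm6 counts were found in vehicle animals, the ratio of pooled CPM was 2110 (95% exact Poisson interval 968 to 5740). For Gabrr1 the ratio was 2340 to the cortex (6 counts, interval 1070 to 6370) and 585 to the hippocampus (49 counts, interval 442 to 792). Gabrr2 was 84.4-fold higher in the retina than in the cortex (interval 69.3 to 104) and 101-fold higher than in the hippocampus (86.7 to 118). Gabrr3 had 2 counts in the cortex, a ratio of 1020 with an interval of 281 to 8400, and 7 in the hippocampus, a ratio of 594 (288 to 1480). These ratios were scaled by the summed library totals, without the TMM correction, and their intervals cover counting error only.

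Within the brain, traces of these genes were counted. Grm6 had 0 counts in vehicle hippocampus and 6 in vehicle cortex, and passed the filter in neither tissue on its own. Grm6 counts appeared in the cortex of 4 animals, numbers 953, 955, 963 and 964 (4, 2, 1 and 3 counts). The summed rod markers in those libraries were 75.1, 15.3, 19.5 and 52.5 CPM, with a median of 19.0 CPM over the 14 cortex libraries. The cortex libraries of animals 952 and 954 had rod sums of 72.3 and 62.4 CPM and 0 Grm6 counts, but 5 and 4 Gabrr1 counts. Gabrr1 also had 2 counts in the cortex of each of animals 953, 963, 964 and 965, and 0 in 8 of the 14 cortex libraries. The rod sum of animal 965 was 18.4 CPM. The part of retinal RNA in the cortical trace was not tested. Gabrr1 had 49 pooled counts in vehicle hippocampus and 6 in vehicle cortex, a ratio of pooled CPM of 4, again without TMM (1.71 to 11.4, counting error only). It passed the filter in the hippocampus but not in the cortex on its own, so the ratio is a description.

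In the deposited coordinates, taken to be on GRCm38, Gabrr2 and Gabrr1 lie beside each other on the plus strand at chr4:33063112-33163588. Gabrr3 lies at chr16:59407382-59461739 and Grm6 at chr11:50850685-50866208. The 250 bases before the RefSeq start of each gene (GRCm38.p6, all on the plus strand) are shown because these 4 genes were high in the retina together. Capitals mark matches to TAATCC on either strand, the core bound by the retinal factors CRX and OTX2, and to CANNTG, the E-box core, which reads the same on both strands. The windows are chr11:50850435-50850684 for Grm6, chr4:33132306-33132555 for Gabrr1, chr4:33062862-33063111 for Gabrr2 and chr16:59407132-59407381 for Gabrr3.
Grm6: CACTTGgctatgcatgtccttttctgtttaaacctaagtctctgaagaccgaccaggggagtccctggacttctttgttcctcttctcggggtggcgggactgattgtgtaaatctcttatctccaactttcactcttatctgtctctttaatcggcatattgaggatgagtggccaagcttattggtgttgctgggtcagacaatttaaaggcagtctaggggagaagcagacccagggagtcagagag
Gabrr1: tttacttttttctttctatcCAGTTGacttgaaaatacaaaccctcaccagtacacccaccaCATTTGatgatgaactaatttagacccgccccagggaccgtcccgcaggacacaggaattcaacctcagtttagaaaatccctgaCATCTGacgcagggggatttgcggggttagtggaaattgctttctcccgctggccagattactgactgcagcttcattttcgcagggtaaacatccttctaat
Gabrr2: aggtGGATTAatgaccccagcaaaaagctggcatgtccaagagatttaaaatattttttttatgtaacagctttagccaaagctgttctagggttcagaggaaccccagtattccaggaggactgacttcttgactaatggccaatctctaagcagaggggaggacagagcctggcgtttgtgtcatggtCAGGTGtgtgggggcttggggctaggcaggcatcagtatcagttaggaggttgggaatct
Gabrr3: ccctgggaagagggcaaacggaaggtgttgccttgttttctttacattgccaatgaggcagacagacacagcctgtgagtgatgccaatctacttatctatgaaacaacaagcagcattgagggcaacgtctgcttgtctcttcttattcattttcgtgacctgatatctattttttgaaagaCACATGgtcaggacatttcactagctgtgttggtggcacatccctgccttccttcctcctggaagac
RefSeq windows were matched for 32 of the 47 subunits. TAATCC was found in 1 of these 4 windows, that of Gabrr2 (as GGATTA), and in 6.25% of 32851 RefSeq promoter windows of the same length. CANNTG was found in each of the 4, with 3 matches for Gabrr1 and 1 for each of the others, and in 66.2% of all windows. A match describes the letters and not a bound site.

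AMPA receptors carry most fast excitation, and their Gria2 subunit blocks calcium entry. Gria1 was highest in the hippocampus, at 1272 to 1534 CPM (median 1356 CPM), against 356 to 468 CPM in the cortex (median 361 CPM) and 57.4 to 71.5 CPM in the retina (median 63.2 CPM). The 3 ranges did not overlap. On the log2 scale Gria1 was higher by 1.83 ± 0.06 (SE) in hippocampus than cortex (adjusted p = 1.35e-16) and lower in retina than cortex, at -2.60 ± 0.06 (adjusted p = 6.74e-21). Gria2 followed the same order at 867 to 1105, 565 to 666 and 118 to 232 CPM, with a log2 difference of 0.66 ± 0.09 between hippocampus and cortex (adjusted p = 1.53e-06). Gria4 went the other way in the brain and lay at 79.3 to 95.1 CPM in the hippocampus and 123 to 152 CPM in the cortex (log2 difference -0.69 ± 0.05, adjusted p = 1.65e-10). Its retinal level of 101 to 122 CPM was the closest to the cortex of any AMPA subunit (-0.36 ± 0.05) and above the hippocampus (0.34 ± 0.05, adjusted p = 4.49e-06). Gria3 did not pass between hippocampus and cortex (-0.11 ± 0.05, adjusted p = 0.0673) and lay at 55.2 to 63.8 CPM in the retina, below both brain tissues.

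Kainate receptors act both behind and before the synapse. Grik1, the subunit of kainate receptors on OFF bipolar cells, was the kainate member that rose in the retina. Its vehicle libraries spanned 108 to 134 CPM there (median 125 CPM), 15.8 to 21.4 CPM in the cortex (median 17.8 CPM) and 15.5 to 18.8 CPM in the hippocampus (median 17.1 CPM). The retina lay above every brain library, by 2.76 ± 0.07 over the cortex (adjusted p = 4.94e-21) and 2.85 ± 0.07 over the hippocampus on the log2 scale. Grik4, a high-affinity subunit known from hippocampal CA3 neurons, showed the reverse order. It ran from 59.1 to 78.3 CPM in the hippocampus, 17.7 to 24.4 CPM in the cortex and 2.14 to 4.07 CPM in the retina, with log2 differences of 1.72 ± 0.10 between hippocampus and cortex (adjusted p = 5.01e-13) and -4.64 ± 0.12 between retina and hippocampus. Grik2 was also higher in hippocampus than cortex (0.69 ± 0.06, adjusted p = 1.88e-09), as was Grik5 (0.54 ± 0.06). Grik3 was lower there (-0.46 ± 0.06, adjusted p = 4.67e-07) and fell further in the retina, where it ran from 14.1 to 16.8 CPM against 108 to 133 CPM in the cortex (-3.00 ± 0.07).

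NMDA receptors need glycine as well as glutamate to open, and Grin1 is the subunit they all hold. Grin1 ran from 475 to 543 CPM in the cortex, 536 to 666 CPM in the hippocampus and 68.2 to 88.6 CPM in the retina. The brain tissues overlapped slightly (log2 difference 0.27 ± 0.05, adjusted p = 0.000178) and the retina lay below both (-2.77 ± 0.06 against cortex). Grin2a and Grin2b, which set the speed of the channel, rose together in the hippocampus. Grin2a was at 123 to 163 CPM there and 37.3 to 53.4 CPM in the cortex (1.48 ± 0.08, adjusted p = 8.77e-13), and Grin2b at 155 to 240 and 55.2 to 80.1 CPM (1.41 ± 0.10, adjusted p = 7.96e-11). In the retina they spanned 4.82 to 8.58 and 4.45 to 11.1 CPM. Grin2c, known from cerebellar granule cells and astrocytes, did not differ between the brain tissues beyond the spread (0.16 ± 0.09, adjusted p = 0.112) and had the largest fall of the class in retina against cortex (-3.73 ± 0.11, from a cortical median of 38.8 to 2.55 CPM, adjusted p = 3.41e-19). Grin2d was at similar levels everywhere, with medians of 11.4, 9.53 and 11.96 CPM in cortex, hippocampus and retina and overlapping ranges. Its log2 difference between retina and cortex was 0.03 ± 0.11 (adjusted p = 0.776), and that between retina and hippocampus passed at 0.25 ± 0.11 (adjusted p = 0.0324), a call that was lost without animal 955, 963, 964, 965 or 966 (adjusted p = 0.0601 to 0.137). Grin3a was higher in hippocampus than cortex (0.44 ± 0.08) and lower in retina (-1.93 ± 0.08). Grin3b, a glycine-binding subunit, was low throughout, with 72, 27 and 166 pooled counts in vehicle cortex, hippocampus and retina. It passed the low count filter in the cortex but not in the hippocampus on its own, so the difference between them (-2.33 ± 0.46) is given as a description. It was called higher in retina than cortex (1.41 ± 0.37, adjusted p = 0.00118).

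Delta receptors organise synapses through cerebellin proteins. Grid1 was at 83.0 to 96.9 CPM in the hippocampus, 61.8 to 73.3 CPM in the cortex and 18.2 to 30.3 CPM in the retina, with no overlap (0.39 ± 0.07 and -1.52 ± 0.07 against cortex).

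Metabotropic receptors fall into group I, which raises calcium and includes Grm5, and groups II (Grm2 and Grm3) and III (Grm4, Grm6, Grm7 and Grm8), which lower cyclic AMP. Grm5 was higher in hippocampus than cortex and lowest in the retina. It ran from 386 to 534 CPM in the hippocampus, 189 to 223 CPM in the cortex and 26.1 to 36.5 CPM in the retina (1.09 ± 0.06 for hippocampus over cortex, adjusted p = 9.12e-13). Its log2 difference between retina and cortex was -2.66 ± 0.07. Group II split in the brain. Grm2 was higher in hippocampus than cortex (0.37 ± 0.07) and Grm3 lower (-0.46 ± 0.06), and both were lower in the retina. Grm3, a receptor of astrocytes as well as neurons, fell most, from 75.8 to 95.7 CPM in the cortex to 1.94 to 2.50 CPM in the retina (-5.29 ± 0.08, adjusted p = 9.9e-25). In group III, Grm8 was highest in the retina at 35.8 to 44.7 CPM, with 22.6 to 26.7 CPM in the cortex and 6.48 to 11.9 CPM in the hippocampus. No 2 of its ranges overlapped, and the hippocampus lay below the cortex by a log2 difference of -1.38 ± 0.10 (adjusted p = 6.11e-11) with the retina above it by 0.77 ± 0.09 (adjusted p = 7.05e-08). Grm4 was lower in hippocampus than cortex (-1.04 ± 0.13, adjusted p = 4.11e-07), although 1 of the 6 hippocampus libraries reached 14.8 CPM against a median of 7.75 CPM. Grm7 differed little between the brain tissues (0.22 ± 0.06) and was lower in the retina (-1.34 ± 0.06).

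GABA-A channels usually hold alpha, beta and gamma subunits, with the alpha subunit deciding drug response and place. Gabra5, the alpha subunit of extrasynaptic receptors on hippocampal pyramidal cells, had the widest spread across tissues of any subunit counted in every library. It ran from 217 to 307 CPM in the hippocampus (median 277 CPM), 62.5 to 92.3 CPM in the cortex (median 76.5 CPM) and 0.486 to 1.58 CPM in the retina (median 1.02 CPM). The log2 difference was 1.81 ± 0.07 between hippocampus and cortex (adjusted p = 3.59e-15), -6.11 ± 0.13 between retina and cortex (adjusted p = 2.41e-22) and -7.92 ± 0.12 between retina and hippocampus. Gabra2 was also higher in hippocampus (58.9 to 84.7 CPM) than in cortex (27.3 to 39.4 CPM; 1.006 ± 0.08, adjusted p = 1.55e-10). Gabra3 was lower in hippocampus than cortex (-1.007 ± 0.08, adjusted p = 2.26e-10). Gabra4 was not called between them (0.00 ± 0.06, adjusted p = 0.963) and fell in the retina from 137 to 168 CPM in the cortex to 10.8 to 15.8 CPM (-3.53 ± 0.07, adjusted p = 4.32e-23). Gabra6, the cerebellar granule cell subunit, had 34, 12 and 6 pooled counts in vehicle cortex, hippocampus and retina.

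Among the beta subunits, Gabrb1 was higher in hippocampus than cortex (1.19 ± 0.10), and Gabrb2 was not called (-0.09 ± 0.07, adjusted p = 0.281). Gabrb1 was at 35.9 to 49.3, 17.4 to 20.5 and 1.21 to 3.63 CPM in hippocampus, cortex and retina. Of the gamma subunits, Gabrg1 was slightly higher in hippocampus (0.33 ± 0.09, adjusted p = 0.00214) but not once each library's trend over GC and length was taken out (0.07, adjusted p = 0.452), and Gabrg3 was not called (-0.05 ± 0.14). Gabrd, the subunit of tonic, extrasynaptic receptors, was a cortical gene here at 72.8 to 92.7 CPM, with 21.2 to 35.1 CPM in the hippocampus and 16.96 to 19.96 CPM in the retina (-1.69 ± 0.08 for hippocampus over cortex, adjusted p = 2.29e-14). A further 3 GABA-A genes were rare. Gabrq had 35, 88 and 74 pooled counts in vehicle cortex, hippocampus and retina, Gabre had 6, 29 and 28, and Gabrp had 0, 0 and 2. The edgeR call of Gabrq in retina over hippocampus (0.90 ± 0.39) was lost without animal 957, at 0.34. It was also lost without animal 958, 964, 965 or 966 (adjusted p = 0.0511 to 0.12). Leaving out the low count filter (adjusted p = 0.062) or the Ttr-rich libraries (adjusted p = 0.0657) lost it too. Both GABA-B genes, which form 1 receptor together, were high in brain and lower in retina. Gabbr1 ran from 673 to 717 CPM in cortex, 674 to 792 CPM in hippocampus and 195 to 210 CPM in retina, and Gabbr2 from 263 to 324, 325 to 370 and 45.2 to 63.6 CPM. Gabbr2 was higher in hippocampus than cortex (0.27 ± 0.06, adjusted p = 0.000358) and Gabbr1 was not called (0.06 ± 0.04, adjusted p = 0.188).

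**Figure D2:**
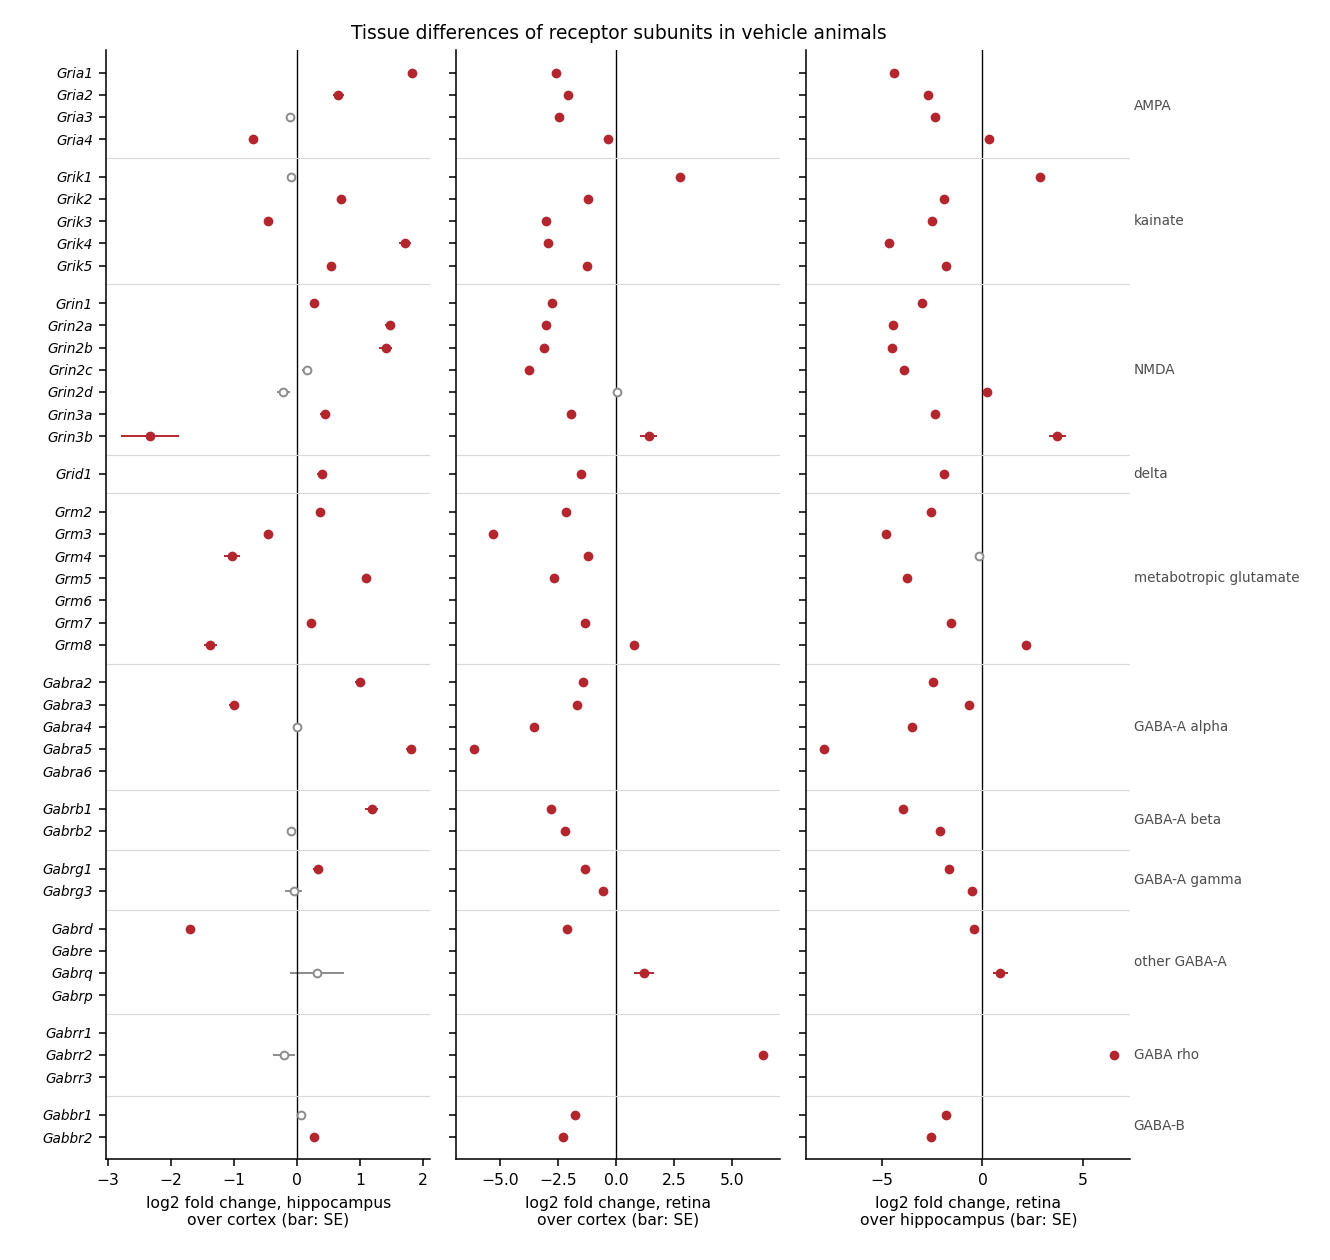
Log2 differences between tissues in vehicle animals for 36 of the tested subunits, with SE bars. Filled red points had an adjusted p under 0.05 and open grey points did not. Grm6, Gabrr1 and Gabrr3 are left out because brain libraries held few or no counts of them. Hippocampus against cortex is mixed, from -2.33 (Grin3b) to 1.83 (Gria1), and retinal differences are mostly negative.

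Several GABA-A genes sit together in the genome, which the choice by symbol did not use. By the deposited coordinates, neighbours within 1000000 bases form clusters that include those on chromosome 5 (Gabrg1, Gabra2, Gabra4 and Gabrb1), X (Gabre, Gabra3 and Gabrq) and 4 (Gabrr2 and Gabrr1). Neighbours did not always share a tissue pattern. In the chromosome 5 cluster, at chr5:70751047-72137244, Gabrg1, Gabra2 and Gabrb1 were higher in hippocampus and Gabra4 was not called. The Gabrg1 call was lost once each library's trend over GC and length was taken out (log2 difference 0.07).

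Ratios between 2 subunits in a library do not depend on its scaling. They were chosen after the levels were seen and are ratios of counts that carry each transcript's length. Each is compared across tissues and treatments, and not with the ratio of another pair. Gria1 to Gria2 had a median of 0.621 in vehicle cortex (0.542 to 0.803), 1.42 in hippocampus (1.33 to 1.61) and 0.479 in retina (0.259 to 0.602), where the cortex and retina overlapped. The lowest retinal value is that of animal 955, whose Gria2 level of 232 CPM was the highest of the retinas. Gria4 to Gria1 separated all 3 tissues, with medians of 0.401, 0.0659 and 1.75 in cortex, hippocampus and retina. Grik1 to Grik5 had medians of 0.105, 0.0671 and 1.76, and the vehicle ranges did not overlap. Grin2a to Grin2b, by contrast, had medians of 0.695, 0.761 and 0.770 with overlapping ranges, although both genes differed between every pair of tissues. In tamoxifen animals the medians were 0.653, 1.52 and 0.4663 for Gria1 to Gria2, and 0.676, 0.753 and 0.616 for Grin2a to Grin2b, whose retinal ranges overlapped between the treatments. Gria4 to Gria1 again separated all 3 tissues with tamoxifen. Grik1 to Grik5 did not, as its cortex (0.0937 to 0.121) and hippocampus (0.0495 to 0.104) overlapped.

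**Figure D3:**
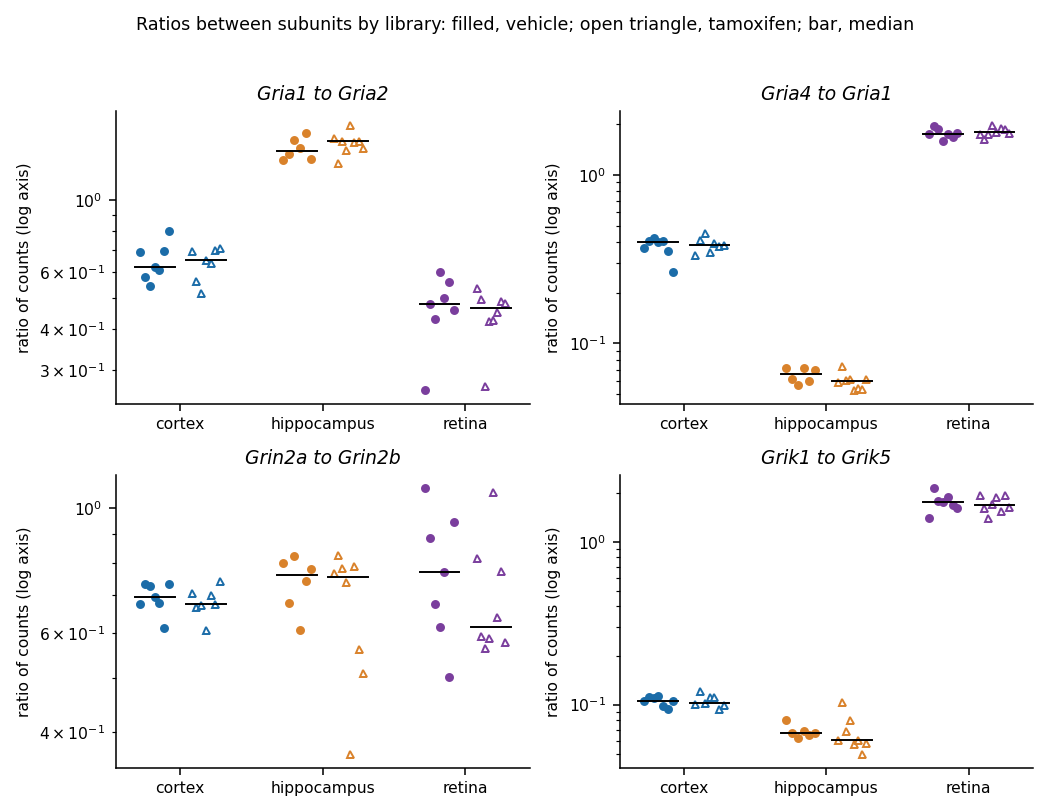
Ratio of counts between 4 pairs of subunits in each library, on log axes. Filled circles are vehicle animals, open triangles tamoxifen animals and bars medians. Gria4 to Gria1 and Grik1 to Grik5 separate the 3 tissues in vehicle animals, and Grin2a to Grin2b does not.

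A further 5 lists of genes that work with these receptors were read beside them, as counts. Beside them stand the shares of all genes called higher and lower, given above: 29.3% and 29% for hippocampus over cortex, 42.1% and 41.4% for retina over cortex, and 43.8% and 40.7% for retina over hippocampus. A list near these shares is no result about that list. Of 19 ionotropic receptor partners (auxiliary subunits and binding proteins), 9 were higher and 8 lower in hippocampus than cortex, led by Shisa6 (4.05 ± 0.14), Cacng8 (1.63 ± 0.08) and Cnih2 (1.49 ± 0.07) among those higher and Gsg1l (-1.45 ± 0.07) among those lower. In retina against cortex 2 were higher and 17 lower, with Nptxr (-3.62 ± 0.06), Cacng8 (-4.46 ± 0.12) and Cnih2 (-3.06 ± 0.08) among them, and in retina against hippocampus 4 and 14. Of 17 glutamate receptor scaffolds tested, 11 were higher in hippocampus than cortex, such as Homer3 (2.54 ± 0.11), and 4 lower, such as Dlg1 (-0.95 ± 0.05), and 15 were lower and 2 higher in retina than cortex, with 13 and 3 against hippocampus. Of 12 GABA receptor partners, 7 were higher and 2 lower in hippocampus than cortex, led by the GABA-B auxiliary subunit Kctd12 (2.03 ± 0.07), and 9 were lower and 2 higher in retina than cortex, with 10 and 1 against hippocampus. Of 16 genes of transmitter synthesis and transport, 7 were higher and 4 lower in hippocampus than cortex, 8 were higher and 6 lower in retina than cortex, and 7 each way against hippocampus. The glutamate transporter Slc1a7 was higher in retina (7.85 ± 0.14 against cortex), and the astrocyte transporter Slc1a2 lower (-3.31 ± 0.05). Glycine receptor genes, the other inhibitory channels, gave 4 of 5 higher in retina than in either brain tissue, and Glrb, the shared beta subunit, was lower (-1.70 ± 0.06 against cortex). Between hippocampus and cortex 3 of the 5 were lower and 0 higher. The median log2 differences of the 5 lists, in the order given, were -0.04, 0.28, 0.20, 0.11 and -0.32 for hippocampus over cortex and -1.66, -1.46, -0.72, 0.11 and 1.82 for retina over cortex. All genes had medians of -0.01 and 0.02.

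The study's main comparison was tamoxifen against vehicle. No subunit differed with tamoxifen in any tissue by edgeR's quasi-likelihood test. In the cortex, 0 of 40 subunits passed, where 0.606% of all genes did, and 0 had an unadjusted p under 0.05, against 9.39% of all genes. In the hippocampus 0 of 41 passed (0.0652% of all genes) with 2 under an unadjusted 0.05 (4.88%, against 7.84% of all genes), and in the retina 0 of 44 passed (0.0474% of all genes) with 3 (6.82% against 7.14%). DESeq2 also called 0 subunits in each tissue, and 176, 63 and 59 of all genes. The smallest adjusted p was 0.579 in the cortex and 0.522 in both other tissues. A p that misses the threshold does not show that levels were equal, so the 95% interval of each log2 difference was read. It lay within 0.5 of 0 for 38 of 40 subunits in the cortex, 35 of 41 in the hippocampus and 37 of 44 in the retina. Those with wider intervals were mostly low in counts, such as Grin3b and Gabrr2 in the cortex, Gabrq and Gabrr1 in the hippocampus and Gabra5 in the retina. Grin2a in the hippocampus was an abundant exception, and its lowest library was that of animal 959, at 43.7 CPM against at least 117 CPM in the other 13.

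**Figure D4:**
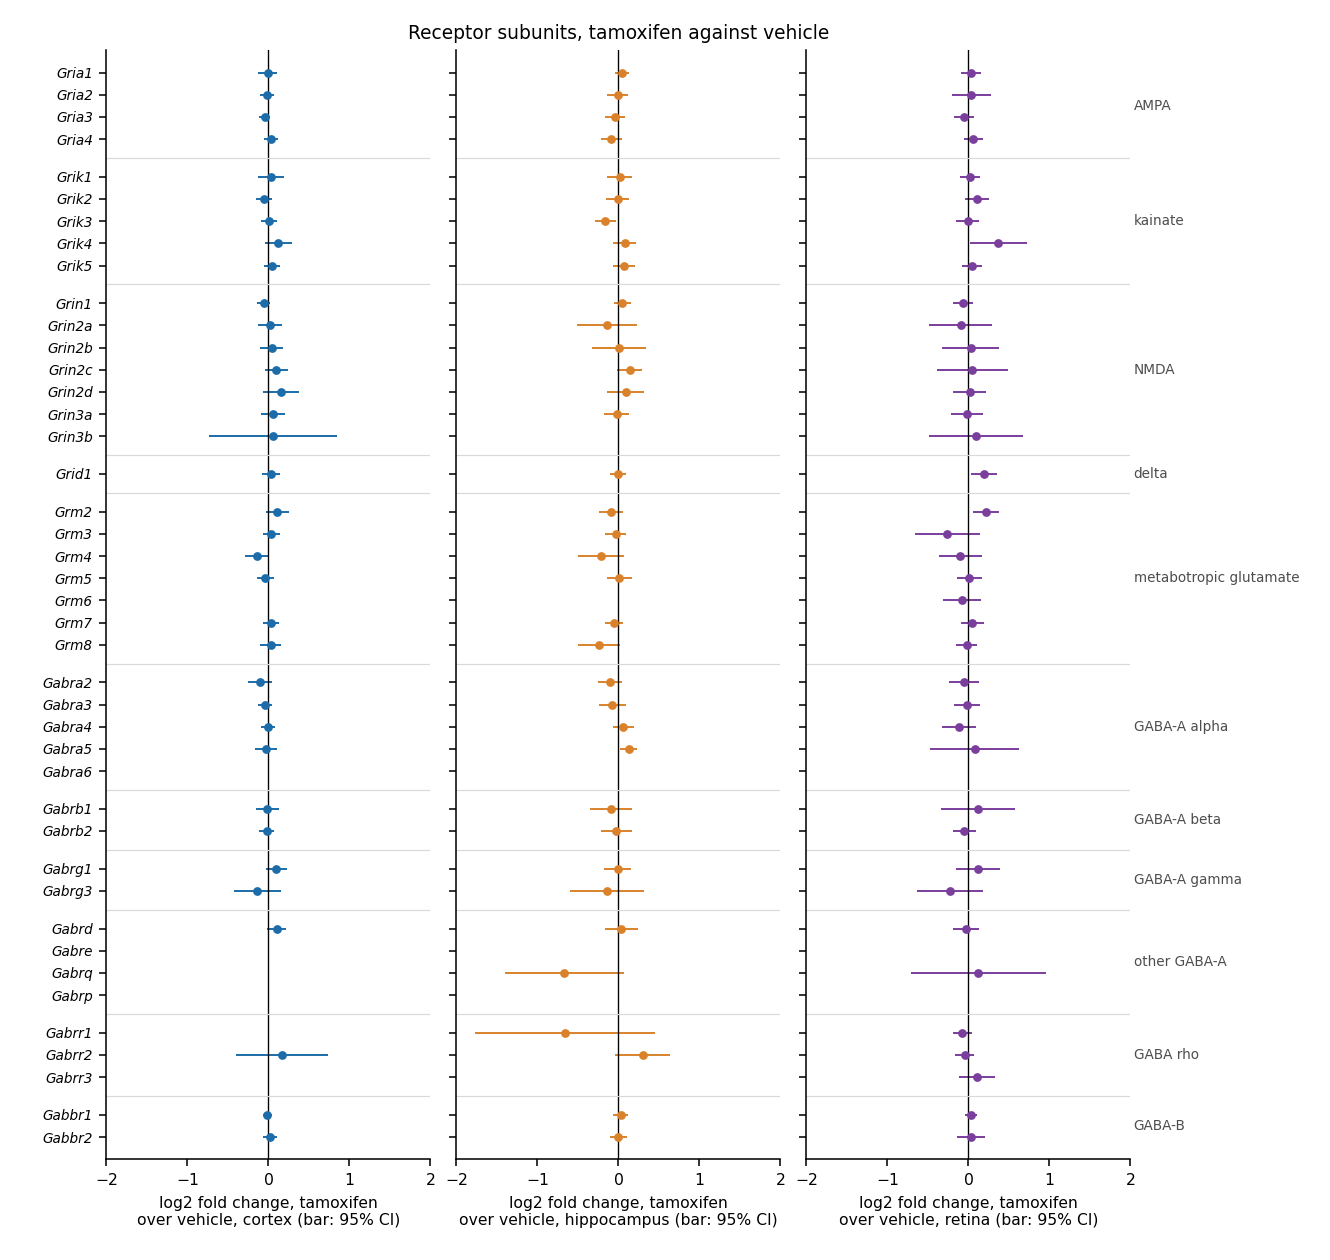
Log2 difference between tamoxifen and vehicle, averaged over the sexes, for subunits that passed the low count filter (cortex 35, hippocampus 36 and retina 39 drawn). Bars are 95% confidence intervals, and no subunit passed an adjusted p of 0.05. Most intervals are within 0.5 of 0, and the wide ones mostly belong to subunits with few counts.

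The 5 subunits with the smallest unadjusted p in the cortex by edgeR were Grm4 (-0.14 ± 0.07, unadjusted p = 0.0629), Gabrd (0.10 ± 0.06), Grm2 (0.11 ± 0.07), Grik4 (0.12 ± 0.08) and Grin1 (-0.06 ± 0.04). Grm4 ran from 16.1 to 18.8 CPM in vehicle cortex (median 16.9 CPM) and from 13.2 to 17.9 CPM with tamoxifen (median 15.7 CPM). These ranges overlapped, and the adjusted p was 0.579. Grik3 came first in the hippocampus, at 74.1 to 107 CPM with vehicle (median 88.8 CPM) and 68.3 to 84.1 CPM with tamoxifen (median 80.2 CPM). Its log2 difference was -0.16 ± 0.06 (unadjusted p = 0.0162, adjusted p = 0.522), and the groups overlapped. Next were Gabra5 (0.13 ± 0.05, unadjusted p = 0.0201, with 217 to 307 CPM in vehicle and 275 to 335 CPM in tamoxifen animals), Grm8 (-0.24 ± 0.12), Grin2c (0.14 ± 0.07) and Gabrq (-0.67 ± 0.35), none of which passed. Without animal 959 these 5 differences were -0.14, 0.13, -0.20, 0.14 and -0.61, and none passed. In the retina Grm2 led, at 12.3 to 14.6 CPM with vehicle (median 13.4 CPM) and 12.7 to 18.3 CPM with tamoxifen (median 15.2 CPM), a log2 difference of 0.22 ± 0.08 (unadjusted p = 0.013, adjusted p = 0.522). Grid1 (0.19 ± 0.08), Grik4 (0.37 ± 0.17), Grik2 (0.11 ± 0.07) and Grm3 (-0.26 ± 0.19) followed. Without animals 953 and 955 the 5 retinal differences were 0.22, 0.14, 0.51, 0.10 and -0.30, and none passed.

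The joint fit of all 43 libraries asked whether the tamoxifen effect differed between tissues. It called 0 of 44 subunits, where 0.0126% of all genes passed, and the smallest adjusted p was 0.779 for Grm2. The sex difference of the tamoxifen effect was called for 0 subunits in the cortex, hippocampus and retina, as for 0% of all genes in each. DESeq2 called 0 subunits in each, and 7, 0 and 0 of all genes. Unadjusted p-values under 0.05 by edgeR were found for 2, 2 and 1 subunits. These were 5%, 4.88% and 2.27% of the subunits, against 5.5%, 3.02% and 3.37% of all genes. Grik3 had the smallest in the cortex (-0.24 ± 0.09, male minus female) and in the hippocampus (-0.28 ± 0.12, and -0.23 without animal 959).

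Among the partner genes, tamoxifen gave 1 call in each of 2 lists in the cortex and none elsewhere. Homer1, the scaffold that links group I metabotropic receptors to calcium stores, was lower (-0.31 ± 0.06, adjusted p = 0.0147), 1 of 17 scaffolds tested. Nptx1, a secreted pentraxin that clusters AMPA receptors, was lower (-0.19 ± 0.04, adjusted p = 0.0272), 1 of 19 ionotropic partners, where 0.606% of all genes tested were called. Grm5 and the AMPA genes were not called in that tissue. The calls of Homer1 and Nptx1 were not tested under the alternative settings. Over all genes, cortical tamoxifen calls went from 89 to 33 without the Ttr-rich libraries. They were 31 to 97 with each animal left out and 143 with GC and length offsets.

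Males and females were compared over both treatments. In the cortex 0 of 40 subunits passed (0.0817% of all genes) and in the retina 0 of 44 (0.149% of all genes), with 7 and 4 at an unadjusted p under 0.05 (17.5% against 8.6% of all genes in the cortex, and 9.09% against 13.1% in the retina). In the cortex these included Gria2 (-0.14 ± 0.04, male over female, unadjusted p = 0.00343), Gabrb2 (-0.14 ± 0.05) and Gria3 (-0.10 ± 0.04). In the retina they were Gria2 (-0.33 ± 0.12, unadjusted p = 0.0106), Grin2b (0.41 ± 0.17), Grm6 and Gabrb2, and Gabrg3 was the next. DESeq2 also called 0 subunits in both tissues, and 33 of all genes in the cortex and 121 in the retina. The female retinas of animals 953 and 955, which stood apart, held the highest Gria2 values of all retinas, at 207 and 232 CPM, and the highest Grm6 values, at 162 and 166 CPM. Without these 2 libraries the sex differences of Gria2 and Grm6 shrank to -0.08 and -0.04, and those of Grin2b and Gabrb2 to 0.21 and 0.06. In the cortex the sex differences went with transcript GC content, at a Spearman rho of 0.499 across 40 subunits and 0.239 across 14093 genes. In the retina rho was -0.313 across 44 subunits and -0.09 across 14141 genes. Genes share these libraries, so the values are a description.

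In the hippocampus 8 of 41 subunits passed (19.5%), where 17.7% of all genes did, so the share among subunits was near the background. Of these, 5 were higher in males. Grin2c ran from 40.5 to 57.7 CPM in 7 males (median 49.9 CPM) and from 35.1 to 47.5 CPM in 7 females (median 38.3 CPM), a log2 difference of 0.37 ± 0.07 (adjusted p = 0.0055). Gabrd (0.31 ± 0.10, adjusted p = 0.0383), Grm2 (0.23 ± 0.07, adjusted p = 0.0363), Grik5 (0.20 ± 0.07, adjusted p = 0.0497) and Grin1 (0.16 ± 0.05, adjusted p = 0.0389) went the same way, with overlapping ranges. The other 3 were lower in males, among them Gabra5 and Gabra4. Gabra5 ran from 217 to 283.2 CPM in males (median 275 CPM) and from 283.4 to 335 CPM in females (median 303 CPM), the only one of the 8 whose ranges did not overlap (-0.20 ± 0.05, adjusted p = 0.016). Gabra4 overlapped (-0.22 ± 0.06, adjusted p = 0.0265).

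The partner lists gave 3 higher and 2 lower of 19 ionotropic partners, 4 and 1 of 17 scaffolds, 3 and 1 of 12 GABA partners, 3 and 1 of 16 synthesis and transport genes, and 0 of 3 glycine receptor genes, in a comparison that called 17.7% of all genes. DESeq2 called 11 of 41 subunits and 3630 of 15339 genes.

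These sex differences, those of the partner lists included, come from a comparison that ran with base composition. The 5 subunits higher in males have transcripts of 56.8% to 62.3% GC, and the 3 lower in males of 42.2% to 47.1%. Across the 41 subunits the log2 difference went with GC content at a Spearman rho of 0.68, and across 14649 genes at 0.621, which describes these libraries, since genes share them. The slope of a library's log2 level on GC was positive in all 7 male hippocampus libraries, at 0.042 to 0.209 per 10% GC, and lay between -0.208 and 0.069 in females, where 6 of 7 were negative. With each library's trend over GC and length taken out, none of the 8 passed by edgeR: Grin2c moved to 0.14 (adjusted p = 0.253) and Gabra5 to -0.12 (adjusted p = 0.151), and Grik5 (-0.048) and Grin1 (-0.03) changed sign. The 2 subunits then called were others, Gria2 (0.16, adjusted p = 0.0234, against -0.12 without the offsets) and Grin2b (0.35, adjusted p = 0.0404, against 0.05), named here after their values were seen. Over all genes 792 of 15339 passed with the offsets. Without the 3 Ttr-rich libraries 17 subunits passed, and 4033 of 15400 genes. Without the library of animal 959, 5 subunits passed, and 2135 of 15308 genes. The count also fell to between 2 and 5 when any 1 of animals 952, 954, 955, 957, 960, 961, 963, 964 or 966 was left out, with 2 left without 954, 955, 957 or 963. Without 954, 955, 957 or 963, 1477 to 1527 of all genes passed, against 2722 in the main fit. The GC trend and sex go together in these libraries and cannot be told apart.

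**Figure D5:**
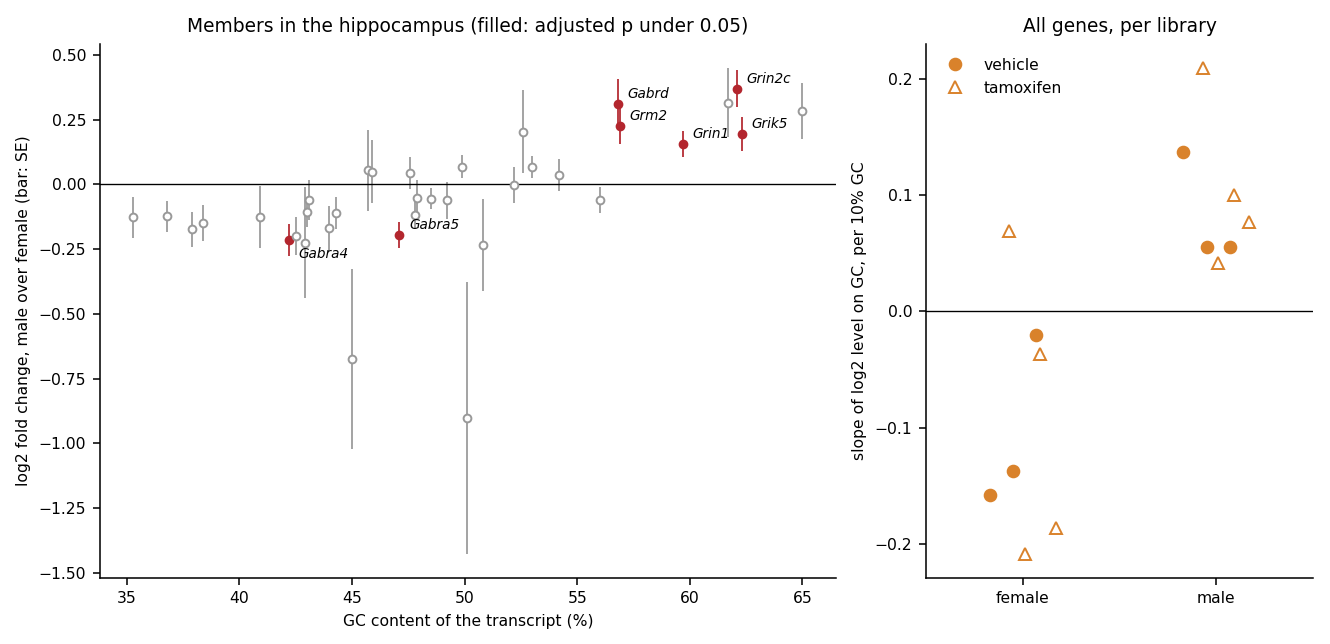
Left, log2 difference between males and females in the hippocampus (7 libraries each, SE bars) against transcript GC content for 36 subunits, of which the 7 past the threshold are filled and named. Right, slope of log2 level on GC over all genes in each hippocampus library. Subunits with more GC lie higher in males, and 6 of 7 female slopes are negative while all 7 male slopes are positive.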

How the data were processed

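Total RNA libraries (TruSeq RNA, which does not mark strand) were measured in 3 mouse tissues. The authors deposited estimated counts per gene, not always whole, on RefSeq gene models, per the file headers. No scaling had been applied to these columns. The submitters' processing notes name DESeq and the builds mm10 and GRCm38, with no role for each. For aligner and counter: not given in the sources used here. A cortex library of 4567 counts was left out, and no hippocampus library of animal 965 was analysed. Estimated counts were rounded, filtered (filterByExpr, minimum count 10, minimum total 15), scaled by TMM and tested with edgeR 4.0.16 (quasi-likelihood, Benjamini-Hochberg adjusted p under 0.05 over all genes) in R 4.3.3. Treatment and sex were fitted per tissue over 4 groups, tissues over the vehicle groups, and the tissue difference of the treatment effect over all 43 libraries. DESeq2 1.42.0 and the other alternatives are in the closing section. The fit was checked on simulated counts with the same dispersion for every gene and no trend over GC or length. That check cannot show how the fit behaves under such trends. Named are all subunits called for treatment or sex (otherwise the 5 smallest p) and, per class, the largest tissue differences. Some subunits are counted but not reported here by name or drawn. The members and lists were chosen with earlier results of these data known.

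Tissues of an animal carry its number. Deviations from the group means correlated between cortex and hippocampus of the same animal at -0.249 to 0.334 (median 0.106, 13 pairs). The median was 0.0608 between cortex and retina (14 pairs) and -0.0254 between hippocampus and retina (14 pairs). For different animals of the same sex and treatment, the medians in this order were -0.0391 (36 pairs), -0.00955 (39 pairs) and 0.0335 (39 pairs). Counts per gene differed between all 57 pairs of replicates beyond sampling noise (chi-square per gene of at least 3).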

Additional observations from a re-analysis of the deposited data

Results flagged for a closer look

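Within groups of 4 libraries, 15 of 259 subunit levels tested had 1 library far from the other 3, by the gap to its nearest neighbour against the range of the group. Chance flags about 1 in 20 such groups. In the cortex, the male vehicle group gave Grik2 at 44.8 CPM in animal 963 (others 50.4 to 51.4 CPM), Gabrd at 85.6 CPM in animal 963 (72.8 to 74.3 CPM), Grm5 at 223 CPM in animal 965 (189 to 194 CPM) and Gabra3 at 188 CPM in animal 966 (214 to 219 CPM). The female tamoxifen cortex gave Grik5 at 201 CPM in animal 951 (166 to 169 CPM) and Gabrb1 at 20.4 CPM in animal 953 (16.9 to 17.4 CPM).

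In the hippocampus, animal 959, whose library stood apart above, had Grm5 at 329 CPM (445 to 456 CPM in the other 3 male tamoxifen animals) and Gabrb2 at 273 CPM (375 to 387 CPM). Gabrr1 reached 0.183 CPM in animal 962 against 0.0559 to 0.0635 CPM. In male vehicle retinas, animal 965 had Grin1 at 88.6 CPM (68.2 to 69.5 CPM) and Grin2b at 11.1 CPM (8.69 to 9.06 CPM), animal 964 had Grin3a at 15.4 CPM (13.1 to 13.4 CPM), and animal 963 had Grid1 at 30.3 CPM (23.3 to 24 CPM) and Gabrg1 at 12.3 CPM (9.71 to 9.9 CPM). Grm4 lay at 4.38 CPM in the retina of female tamoxifen animal 953 (7.37 to 7.72 CPM).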

How the results depend on the processing

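For tamoxifen, its sex difference and the joint tissue test, 0 subunits were called under every alternative run, including each animal left out in turn (0 to 0). Sex in the cortex and retina also stayed at 0. Hippocampal sex calls moved from 8 to 17 without Ttr-rich libraries, 5 without the library that stood apart and 2 with GC and length offsets, both chosen after seeing the data, and to between 2 and 11 with each animal left out. Calls over all genes moved as well, from 2722 to 4033, 2135 and 792 in the same order, and to between 1477 and 3808 with each animal left out. With the offsets Grik5 (-0.048) and Grin1 (-0.03) reversed. Hippocampus against cortex kept 31 to 34 calls with each vehicle animal left out (21 to 23 higher, 10 to 13 lower) and 16 (10 higher, 6 lower) with a 2-fold minimum. With that minimum 1782 of 15598 genes were called, against 9092 without it. Retina against cortex kept 42 to 43 (8 higher, 34 to 35 lower) and retina against hippocampus 40 to 42 (8 to 9 higher, 32 to 33 lower). Over all genes, each vehicle animal left out gave 8164 to 8797 calls for hippocampus against cortex. It gave 12692 to 12952 for retina against cortex and 12918 to 13060 for retina against hippocampus. With animal as a replicate block the tissue calls were 32, 43 and 42 of 44 subunits, and 8671, 13027 and 13093 of 15817 genes. Among the named subunits, only Gabrq in retina against hippocampus then lost its edgeR call (0.79, adjusted p = 0.0887). Depth limits Grin3b, Gabrq and the rho genes in brain. The labels do not say that the tissues were processed together, so tissue and processing cannot be told apart.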
